A study of Mus musculus with 8 samples.

Results

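Genes of the loop of Henle and the distal tubule were examined in embryonic kidneys of p53 null mice, set against p53 wild-type mice. The set holds 8 genes, Slc12a1, Kcnj1, Bsnd, Slc12a3, Slc12a2, Umod, Tmem52b and Sim2. They were found by matching the RefSeq accession of each non-control probe to these symbols, which gave 8 probes, 1 per gene, of 41174 non-control probes, and 8 of the 17305 genes that could be named. In the mouse annotation Slc12a1 lies on chromosome 2, Bsnd on 4, Tmem52b on 6, Umod on 7, Slc12a3 on 8, Kcnj1 on 9, Sim2 on 16 and Slc12a2 on 18. The arrays were designed on an older genome build (mm9), so probe positions are not given. Both genotypes were C57BL/6 embryos at embryonic day 15.5, and total RNA of the embryonic kidney was hybridized. Each of 8 arrays with 2 colours carried p53 null RNA in one dye and wild-type RNA in the other, with both dye orientations in each of 3 biological replicates. Replicate 1 had 4 arrays and replicates 2 and 3 had 2 arrays each. All arrays of replicate 1 lay on 1 slide, called slide 1, and all arrays of replicates 2 and 3 lay on another, called slide 2. The number of embryos per RNA was not given in the sources used here. In the bulk RNA of a whole organ, fewer cells of a type and less RNA per cell cannot be told apart.

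The thick ascending limb of the loop of Henle reabsorbs salt without water. Slc12a1 (the cotransporter NKCC2) carries sodium, potassium and chloride in from the lumen, Kcnj1 (the channel ROMK) lets the potassium return to the lumen, and chloride leaves on the blood side through channels that need the subunit barttin, encoded by Bsnd. In humans, loss of Slc12a1, Kcnj1 or Bsnd causes Bartter syndrome, a salt-wasting disease. Further along, the distal convoluted tubule takes up sodium and chloride through Slc12a3 (the cotransporter NCC). Slc12a2 (NKCC1) is the widely expressed relative of Slc12a1 and usually sits on the blood side of epithelia. Umod encodes uromodulin, the protein that the thick ascending limb secretes into urine, and Tmem52b encodes a transmembrane protein. Sim2 is a transcription factor of the bHLH-PAS family, named after single-minded of Drosophila. Nephron segments are only beginning to differentiate in the mouse kidney at this age.

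The promoters of Slc12a1 and Kcnj1 are shown because these members had the highest ratios on slide 2. Each sequence holds the 250 bases before the annotated start, read 5′ to 3′ on the strand of the gene, from the RefSeq annotation of GRCm38.p6. Promoter entries were found for 5 of the 8 members. Capitals mark matches to the motifs searched on both strands.
Slc12a1: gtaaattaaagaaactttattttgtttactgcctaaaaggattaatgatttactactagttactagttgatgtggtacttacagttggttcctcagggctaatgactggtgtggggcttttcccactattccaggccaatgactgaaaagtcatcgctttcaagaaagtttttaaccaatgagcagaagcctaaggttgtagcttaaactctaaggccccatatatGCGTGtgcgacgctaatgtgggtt
Kcnj1: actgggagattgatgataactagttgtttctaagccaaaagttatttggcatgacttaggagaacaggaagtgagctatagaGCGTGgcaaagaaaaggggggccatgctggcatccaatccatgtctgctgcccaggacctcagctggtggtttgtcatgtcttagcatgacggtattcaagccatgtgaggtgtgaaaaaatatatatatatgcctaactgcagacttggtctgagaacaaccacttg
The Slc12a1 window lies at chr2:125152350-125152599 and the Kcnj1 window at chr9:32393735-32393984, both on the plus strand. The motifs were GCGTG and ACGTG, core letters bound by bHLH-PAS factors, and TATAAA, the TATA box. The letters GCGTG stood in the Slc12a1 window with the first base 24 bases before the start, and in the Kcnj1 window 168 bases before it. Of 32851 promoter windows of the same length, 28.2% held GCGTG, so these are common letters. ACGTG (16.6% of all windows) and TATAAA (12.4%) had no match in either window. These matches describe letters and are not shown to be binding sites.

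All values below are log2 ratios of p53 null over wild type, so a positive value is a higher signal in the null kidney. A value per replicate is the mean of its 2 dye orientations. A probe entered the test if null or wild-type RNA was flagged by the scanner software as well above background on 50% or more of each replicate's arrays. Of the 8 members, 7 were tested, and 21081 probes were tested in all. None of the 7 passed the threshold of 0.05 on the p-value adjusted over all probes, and none had an unadjusted p under 0.05 (limma). The backgrounds over all probes were 0% for the adjusted and 17.1% (3614 probes) for the unadjusted p. Apart from Tmem52b, the tested members' ratios differed more between the slides than between the replicates of slide 2.

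The slides also differed in the arrays as a whole. On slide 2, between 50.1% and 51.4% of spots were well above background for null RNA and between 46.9% and 48.0% for wild-type RNA. On slide 1 the shares were 57.8% to 60.6% for null RNA and 60.3% to 62.8% for wild-type RNA. The wild-type signals of replicates 2 and 3 were about as alike as repeated arrays of 1 RNA. Their log2 levels differed with an SD over probes of 0.136 and 0.142 in the 2 dyes, against 0.182 and 0.198 for the null RNA of these replicates and 0.135 to 0.186 for repeated arrays of replicate 1. For null RNA the SD in Cy5 (0.182) thus also lay within the range of repeated arrays, and that in Cy3 (0.198) above it. The numbering of the deposited arrays gives the wild-type RNA of replicates 2 and 3 the same number. Separate wild-type kidneys and 1 shared wild-type RNA cannot be told apart here, and a p-value that rests on replicates 2 and 3 may measure technical spread on the wild-type side. The targeted gene Trp53 had −1.08, −0.47 and −0.45 in replicates 1, 2 and 3 on its representative probe (mean −0.67 ± 0.36, SD, n = 3; limma, adjusted p = 0.279) and 0.16 ± 0.13 on a second probe (adjusted p = 0.386). The deleted stretch was not given in the sources used here, so neither probe is a sure check of the label.

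Slc12a1, the apical sodium, potassium and chloride cotransporter, had the widest spread among the members. Its ratio was −0.22, −0.52, −0.35 and −0.68 on the arrays of replicate 1, 1.71 and 1.42 in replicate 2, and 1.81 and 1.47 in replicate 3. Every array of slide 1 lay below 0 and every array of slide 2 lay well above it, with no overlap. The mean over the replicates was 0.92 ± 1.18 (SD, n = 3), and it did not pass (limma, adjusted p = 0.369). Null kidneys had 3.04-fold the wild-type level on slide 2 and 0.735 of it on slide 1. On slide 2 only 30 of the 21081 tested probes had a higher ratio (0.142%). It lay towards the other end on slide 1, where 6.1% of tested probes had a lower ratio.

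Each genotype's own level is given as a description, since a level carries any slide effect shared by both channels of an array. Whether the ratio itself is free of slide effects was not tested. The normalized log2 intensity of Slc12a1 was 9.17, 9.83 and 9.91 in p53 null kidneys and 9.61, 8.26 and 8.27 in wild-type kidneys, in replicates 1, 2 and 3. The level on slide 2 minus that on slide 1 was 0.70 in null and −1.35 in wild type, so the wild-type level differed more between the slides.

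Kcnj1, the potassium channel of the same apical membrane, had a step between slides in the same direction. Its ratio was −0.23, −0.53, −0.50 and −0.61 on the arrays of replicate 1, 1.32 and 1.34 in replicate 2, and 1.27 and 1.35 in replicate 3. The 4 arrays of slide 2 lay close together and did not overlap with those of slide 1. The mean was 0.72 ± 1.03 (SD, n = 3) and did not pass (limma, adjusted p = 0.404). Null kidneys had 2.49-fold the wild-type level on slide 2 and 0.724 of it on slide 1. Its normalized log2 intensity was 8.29, 8.51 and 8.60 in null kidneys and 8.75, 7.19 and 7.29 in wild-type kidneys. The level on slide 2 minus that on slide 1 was 0.27 in null and −1.51 in wild type.

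Bsnd, the barttin subunit of the basolateral chloride channel, gave a weak signal. It was well above background for null RNA on all 8 arrays and for wild-type RNA on 5 of 8, missing on both wild-type channels of replicate 3 and on 1 of replicate 2. Its ratio was −0.09, 0.11 and 0.06 in replicates 1, 2 and 3 (mean 0.02 ± 0.11, SD, n = 3; limma, adjusted p = 0.882). The sign differed between slides, as for Slc12a1 and Kcnj1, but its arrays only ranged from −0.16 to 0.13.

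Slc12a3, the cotransporter of the distal convoluted tubule, was not well above background on any of the 8 arrays in either genotype, and no ratio is given for it. In null kidneys its spot brightness was 72 to 76 in Cy5 over a local background of 58.5 to 74, and 24.5 to 27.5 in Cy3 over 18.5 to 24. In wild-type kidneys it was 67.5 to 81 in Cy5 over 63 to 71.5, and 24 to 29 in Cy3 over 20 to 22.5. The probe thus gave only a bound in both genotypes at this age.

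Slc12a2, the basolateral relative of Slc12a1, ran the other way. Its ratio was −0.10, 0.11, −0.09 and 0.16 on the arrays of replicate 1, −0.77 and −0.79 in replicate 2, and −0.63 and −0.65 in replicate 3. The arrays of slide 1 lay on both sides of 0, while all of slide 2 were below it. The mean was −0.47 ± 0.42 (SD, n = 3) and did not pass (limma, adjusted p = 0.303). The null level was 0.612 of wild type on slide 2, and 3.18% of tested probes had a lower ratio there. Its normalized log2 intensity was 9.18, 9.38 and 9.48 in null kidneys and 9.16, 10.16 and 10.12 in wild-type kidneys. The level on slide 2 minus that on slide 1 was 0.25 in null and 0.98 in wild type.

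Umod, the uromodulin gene, had −0.02, −0.16, 0.03 and −0.03 on the arrays of replicate 1, 0.75 and 0.62 in replicate 2, and 0.88 and 0.69 in replicate 3. Slide 1 lay around 0 and slide 2 above it, without overlap. The mean was 0.48 ± 0.45 (SD, n = 3; limma, adjusted p = 0.307), and null kidneys had 1.67-fold the wild-type level on slide 2. The spot was dim: wild-type RNA was well above background on 7 of 8 arrays and null RNA on all 8. Its normalized log2 intensity was 7.01, 7.54 and 7.62 in null kidneys and 7.05, 6.86 and 6.83 in wild-type kidneys. An offset of 50 added in the background correction compresses the ratio of dim spots, and with an offset of 10 the mean was 0.88.

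Sim2, the bHLH-PAS factor, had the same pattern at a smaller size, with −0.07, 0.52 and 0.55 in replicates 1, 2 and 3 (mean 0.33 ± 0.35, SD, n = 3; limma, adjusted p = 0.340). Null kidneys had 1.44-fold the wild-type level on slide 2. The normalized log2 intensity was 8.36, 8.18 and 8.14 in null kidneys and 8.43, 7.67 and 7.60 in wild-type kidneys, lower on slide 2 in both genotypes and more so in wild type.

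Tmem52b was the 1 member with the same sign throughout. Its ratio was 0.20, 0.19 and 0.12 in replicates 1, 2 and 3, and it was positive on all 8 arrays, between 0.06 and 0.36. The mean of 0.17 ± 0.04 (SD, n = 3) was small and did not pass (limma, adjusted p = 0.307; unadjusted p = 0.0658). It was higher in all 3 replicates, as were 20.9% of all tested probes.

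**Figure D1:**
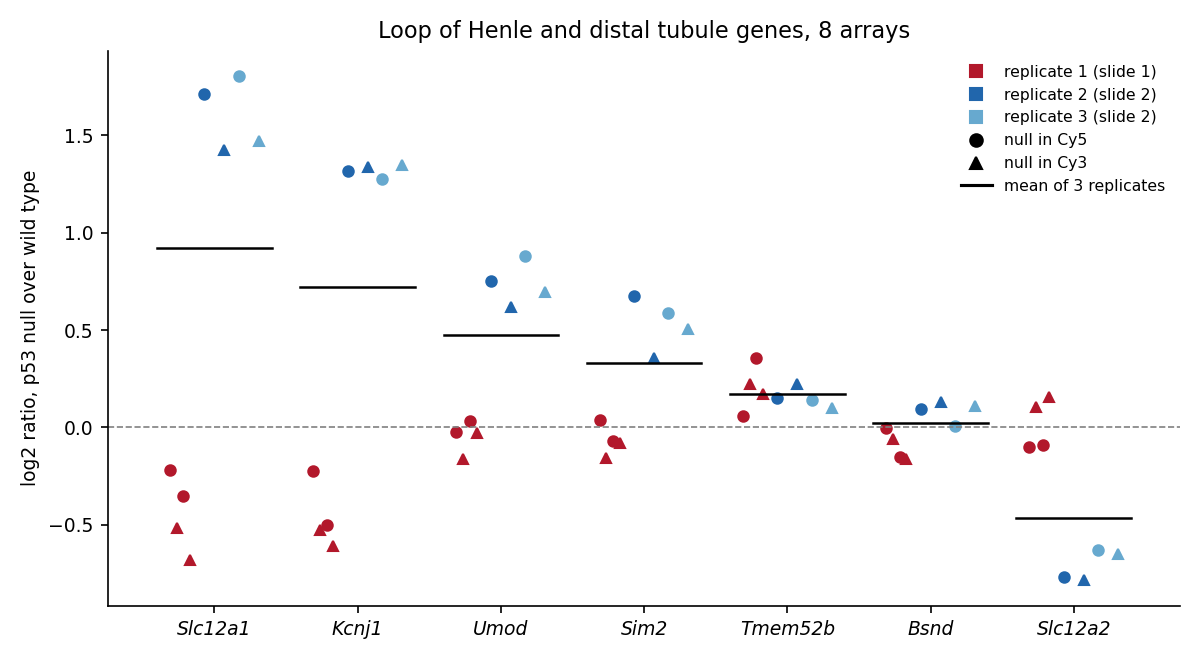
The log2 ratio of p53 null over wild type (y axis) is plotted for each of the 7 tested members (x axis) on each of 8 arrays, coloured by replicate, with the dye of the null RNA as the symbol and a line at the mean of the 3 replicates. Slc12a1 and Kcnj1 lie below 0 on the arrays of replicate 1 and above 1 on those of replicates 2 and 3, Slc12a2 lies below 0 on slide 2, and Tmem52b stays above 0 on all arrays.

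**Figure D2:**
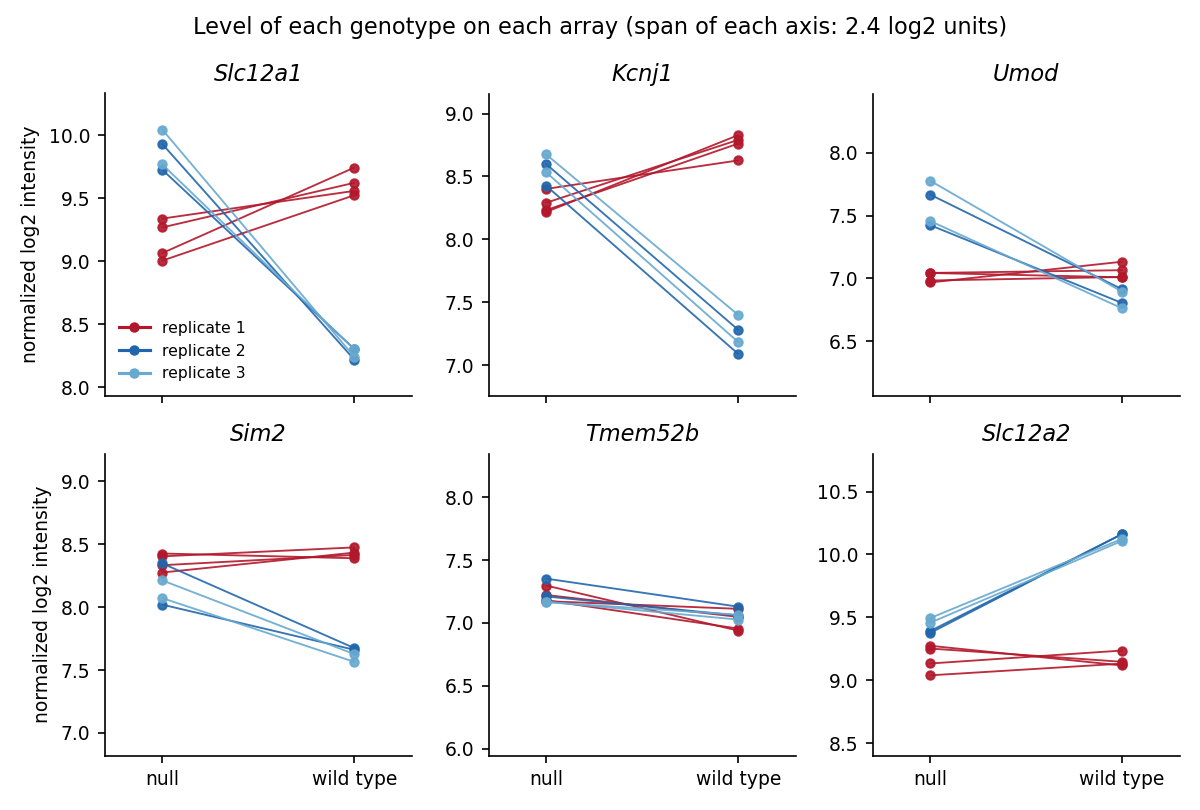
The normalized log2 intensity (y axis) of p53 null RNA is set left of that of wild-type RNA for 6 members, with a line joining the channels of each array, coloured by replicate. For Slc12a1 and Kcnj1 the wild-type levels of replicates 2 and 3 lie well under those of replicate 1, and for Slc12a2 they lie above.

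Of the 7 members, 5 were lower in replicate 1 and higher in replicates 2 and 3, a pattern shared by 24.4% of all tested probes (5142). Slide 1 holds 1 replicate, so the difference between slides could not be tested. Without replicate 1, 4 members were higher in null (Slc12a1, Kcnj1, Umod and Sim2) and 1 was lower (Slc12a2) at an adjusted p under 0.05. In that fit 30.6% of all probes were called higher and 25.0% lower, so calls were common. The adjusted p-values without replicate 1 were 2.01e-17 for Slc12a1, 1.55e-15 for Kcnj1, 4.83e-10 for Umod, 1.73e-07 for Sim2 and 1.18e-09 for Slc12a2 (limma), under the limit on wild-type RNA given above. That fit rests on 2 replicate values per probe from 1 slide. Most of its 28 degrees of freedom are borrowed from the spread of all probes. With the slide as a fixed block, which weights the slides equally and takes the spread from replicates 2 and 3, 5 members were called higher and 1 lower, against 19.7% and 20.8% of all probes. The ratios under the block were 0.58 for Slc12a1, 0.43 for Kcnj1, 0.35 for Umod, 0.23 for Sim2, 0.18 for Tmem52b and −0.35 for Slc12a2. These are means of the slides, and on slide 1 Slc12a1 (−0.44), Kcnj1 (−0.47), Umod (−0.045) and Sim2 (−0.07) lay below 0. The difference between slides does not enter the spread of the block fit. Most of its 27.7 degrees of freedom are also borrowed, and the limit on wild-type RNA applies to it too. With 1 value per slide no member passed. An exact sign permutation of 3 replicates gives no p under 0.25 (two-sided).

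The size of several ratios depended on the processing, without a change of call. In the authors' deposited values, which carry no offset, the means were 1.39 for Kcnj1, 1.38 for Umod, 0.58 for Sim2, 0.47 for Tmem52b and 0.26 for Bsnd. Centring each array on its median in place of loess gave −0.26 for Slc12a2.

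The median over the 7 members was 0.33, with 0.53 on slide 2 and −0.07 on slide 1. Over all 12095 genes the medians were 0.01, 0.03 and −0.02. Of the members 6 had a mean above 0 and 1 below, and of all genes 51.0% had a mean above 0. With median centring in place of loess the members' signs were as before, while 75.5% of all genes lay above 0, nearer to the members' share.

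The genes that work with these transporters had a median near 0. Of 18 transport partners listed (chloride channels, potassium channels, the sodium pump, claudins, exchangers), 16 were on the array and 13 were measured. None passed, 7 had a mean above 0 and 6 below (10 and 3 with median centring), and the median was 0.00, with 0.01 on slide 2 and −0.08 on slide 1. Cldn16, the claudin that lets magnesium and calcium pass between cells of the thick ascending limb, had 0.13, 0.64 and 0.47 in replicates 1, 2 and 3 (mean 0.41 ± 0.26, SD, n = 3; limma, adjusted p = 0.280), and its wild-type channel cleared background on 6 of 8 arrays. Kcnj10, a basolateral potassium channel of the distal tubule, had −0.27 ± 0.13 (adjusted p = 0.281), while its partner subunit Kcnj16 had 0.28 ± 0.22 (adjusted p = 0.304). A second tested Kcnj16 probe had −0.14, 0.18 and 0.34 (mean 0.13 ± 0.24), and a further probe did not pass the filter. Atp1b1, the beta subunit of the sodium pump, had −0.21 ± 0.18 (adjusted p = 0.341), a sign that turned to 0.03 when arrays were centred on the median in place of loess.
Outside the rule for named genes and chosen after its values were seen, Fxyd2, the gamma subunit of the sodium pump, had −0.41, 0.92 and 1.18 (mean 0.56 ± 0.85), the order of slides seen for Slc12a1. Casr, Kcnj15 and Slc9a3 did not pass the filter, and Atp2b4 had no named probe.

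The other genes of the SLC12 family had ratios near 0. All 6 were measured, none passed, and the median was −0.02, with 2 above 0 and 4 below. Slc12a9 had 0.23 ± 0.34 and Slc12a8 0.13 ± 0.05, while the potassium and chloride cotransporters Slc12a7 and Slc12a4 had −0.21 ± 0.32 and −0.12 ± 0.30 (SD, n = 3 each). These last signs depended on scaling: with median centring Slc12a7 had 0.02 and Slc12a4 had 0.09, and all 6 lay above 0.

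The kinases that switch the cotransporters on, and their regulators, had ratios of both signs. WNK kinases activate Stk39 (SPAK) and Oxsr1, which phosphorylate Slc12a1, Slc12a2 and Slc12a3. Of 9 measured genes none passed, 5 had a mean above 0 and 4 below (6 and 3 with median centring), and the median was 0.03. Wnk1 had −0.23, −0.56 and −0.42 (mean −0.40 ± 0.17; limma, adjusted p = 0.279), negative in every replicate on its representative probe. A second tested Wnk1 probe had −0.35, −0.13 and 0.02 (mean −0.16 ± 0.19), and a further probe did not pass the filter. Stk39 had −0.31 ± 0.22 (adjusted p = 0.290). Cab39l, a scaffold that activates Stk39, had 0.25 ± 0.10 (adjusted p = 0.282), and its other probe 0.04. Sgk1, the kinase induced by aldosterone, had 0.00, 0.68 and 0.74 (mean 0.47 ± 0.41; adjusted p = 0.296). Nedd4l did not pass the filter, and Klhl3 and Wnk3 had no named probe.

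Genes of distal calcium and magnesium handling were 5 measured of 8, with 4 above 0, 1 below and none past the threshold (median 0.16). S100g, a cytosolic calcium-binding protein, had −0.56, 0.85 and 1.08 (mean 0.45 ± 0.89; limma, adjusted p = 0.522), again with opposite signs on the slides. Trpm7, a magnesium-permeable channel, had 0.28 ± 0.19, the calcium-binding protein Calb1 0.16 ± 0.19 and the magnesium transport protein Cnnm2 −0.09 ± 0.01. Pvalb, Trpm6 and Trpv5 did not pass the filter.

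Transcription factors of the distal nephron had a median just below 0. Of 10 measured, 3 had a mean above 0 and 7 below (7 and 3 with median centring), and none passed (median −0.06). Ppargc1a, a coactivator of mitochondrial genes, had 0.11, −0.75 and −0.60 (mean −0.41 ± 0.46; adjusted p = 0.346), and Esrrg had 0.15, −0.59 and −0.45 (mean −0.30 ± 0.39; adjusted p = 0.401). Tfap2a had 0.09 ± 0.12. Esrrb, Irx3, Sim1 and Tfap2b did not pass the filter.

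The calls of these lists depended on how replicate 1 and the slide entered the fit. Without replicate 1, 4 transport partners were called higher and 1 lower, and 1 other SLC12 gene was called higher. Of the kinases and their regulators 5 were called higher and 2 lower, of the calcium and magnesium genes 3 higher and 0 lower, and of the transcription factors 0 higher and 3 lower (limma, adjusted p under 0.05, against 30.6% and 25.0% of all probes). With replicate 1 kept and the slide as a fixed block, 4 transport partners were called higher and 3 lower, and of the other SLC12 genes 0 higher and 2 lower. The block gave 2 higher and 3 lower among the kinases and their regulators, 2 higher and 0 lower among the calcium and magnesium genes, and 0 higher and 4 lower among the transcription factors, against 19.7% and 20.8% of all probes. The limits given above for the block fit hold for these calls.

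Marker lists of other cells differed between the slides to unlike degrees, and the stroma list had a negative median on both. Of 12 measured proximal tubule markers 9 had a mean above 0 (11 with median centring; median 0.45, with 0.77 on slide 2 and −0.18 on slide 1), with Slc7a9 at 0.72 ± 0.65 and Slc2a2 at 0.25 ± 0.14. Of 14 collecting duct markers 7 lay above 0 and 7 below (9 and 5 with median centring). Their median was −0.09, with 0.09 on slide 2 and −0.245 on slide 1. Scnn1g had −0.82 ± 0.32 and Aqp3 had −0.40 ± 0.09, both negative in every replicate. All 4 measured liver markers lay above 0 (median 0.52, with 0.78 on slide 2 and −0.03 on slide 1), with Afp at 1.03 ± 1.26 and Fgb at 0.63 ± 0.46, while Alb, Apoa1, Fga, Fgg and Ttr did not pass the filter. All 7 measured macrophage markers had a mean above 0 (range 0.25 to 0.75), with a median of 0.61 on slide 2 and 0.235 on slide 1. On slide 1, 4 of them lay above 0 and 3 below. Among them, Aif1 had 0.45 ± 0.10 (0.17 on its other tested probe) and Adgre1 had 0.51 ± 0.17. All 10 stroma markers had a mean below 0 (range −0.54 to −0.09), among them Col1a1 at −0.49 ± 0.16 and Fbln2 at −0.39 ± 0.04. The list's median was −0.40 on slide 2, with 9 below 0 and 1 above. On slide 1 it was −0.26, with 8 below 0 and 2 above. With median centring 9 stroma markers lay below 0 and 1 above, the list's median was −0.13 against −0.33 with loess, and Col1a1 and Fbln2 had −0.19 and −0.16. The other tested Col1a1 probes had −0.50 and −0.06. All 18 glycolysis and hypoxia genes lay below 0 (median −1.29, with −1.71 on slide 2 and −0.26 on slide 1), among them Pkm at −0.88 ± 0.24 and Gapdh at −0.87 ± 0.27. None of these genes passed the adjusted threshold (limma). Without replicate 1, 9 proximal tubule, 3 liver and 7 macrophage markers were called higher, and 8 stroma markers were called lower and 1 higher. In that fit all 18 glycolysis and hypoxia genes were called lower, and the collecting duct markers gave 4 higher and 5 lower. Of all probes, 30.6% were called higher and 25.0% lower there. With the slide as a fixed block, the calls were 9 higher and 1 lower for proximal tubule, 3 higher for liver, 6 higher for macrophage, 8 lower for stroma, 18 lower for glycolysis and hypoxia, and 1 higher and 7 lower for collecting duct. The block called 19.7% of all probes higher and 20.8% lower, under the limits given above for that fit. The part of these markers in the members' ratios was not tested.

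**Figure D3:**
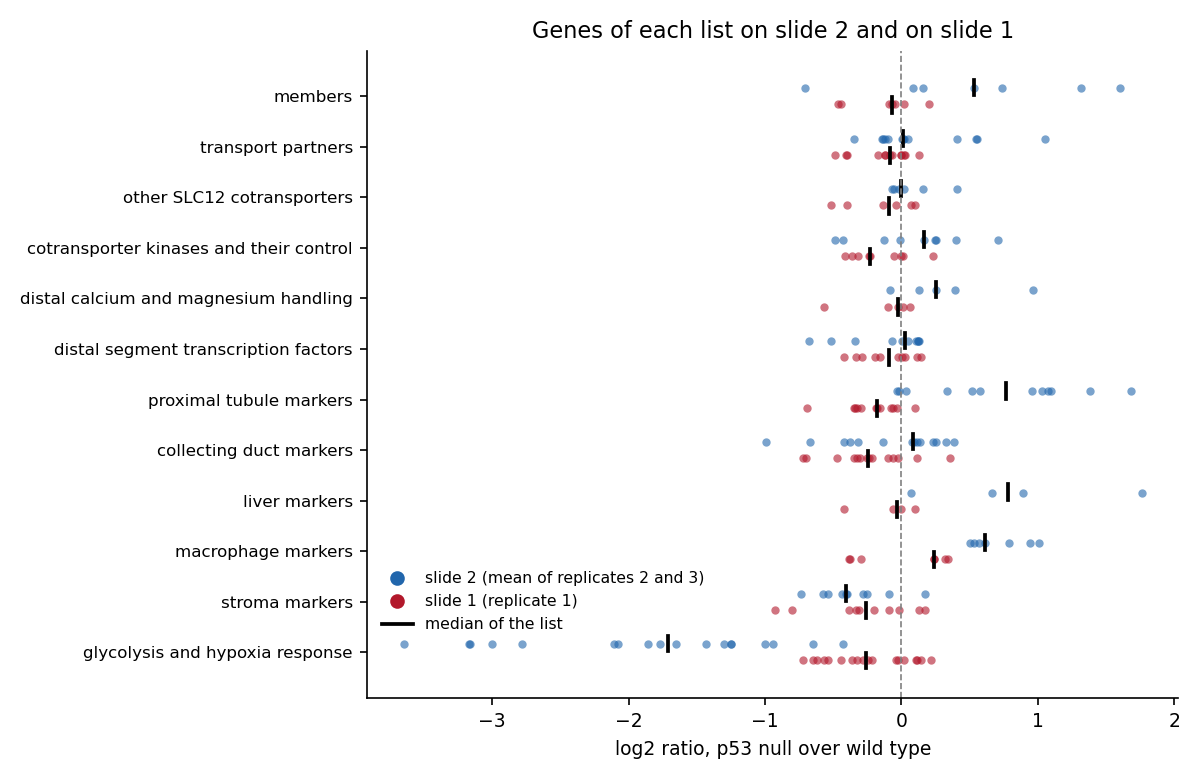
Each point is the log2 ratio of p53 null over wild type (x axis) of 1 gene, for the members and 11 gene lists (y axis), on slide 2 (blue, mean of replicates 2 and 3) and on slide 1 (red, replicate 1), with black bars at the list medians. The members and the proximal tubule and liver markers have medians of 0.53, 0.77 and 0.78 on slide 2 and of −0.07, −0.18 and −0.03 on slide 1, while the glycolysis and hypoxia genes lie below 0 on slide 2.

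The genes whose ratios ran most like a member's over the 8 arrays were sought among 11829 genes by Pearson correlation. The arrays share 2 slides, so these correlations mostly describe the step between slides. For Slc12a1 the closest were Nme1 and Dusp14 (both 0.998), for Kcnj1 1110008P14Rik (0.999) and Pomp (0.998), and for Umod Pdlim1 (0.997) and Pdzd3 (0.996). For Sim2 they were Naa60 and Card10 (0.995 each), for Slc12a2 Trit1 (0.996) and Ankhd1 (0.993), and for Bsnd Pan2 (0.975) and Gas6 (0.972). For Tmem52b, which showed no step, the highest were lower, Ephb1 at 0.898 and Cr1l at 0.859.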

How the data were processed

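Total RNA of p53 null and wild-type kidneys was measured on 8 arrays. The authors' deposited scanner files give linear intensity of each spot and its background. Per the file headers they come from Feature Extraction 10.5.1.1, while the submitters' processing notes name 6.1. They also give the program's log10 ratio of red over green. The deposited value table equals that log10 ratio turned to null over wild type (largest difference 4.94e-06), so its scale, centring and direction are settled.

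Median spot and background intensity were corrected by normexp (offset 50) and normalized by loess within each array in limma 3.58.1 (R 4.3.3), with 1639 control spots at weight 0. Outlier spots took part in the normalization and were left out after it. No spot was saturated (0). Spots of a probe were averaged, then arrays within a dye orientation, then the 2 orientations within a replicate. Probes were named through RefSeq accessions (25097 of 41174), and a gene is represented by its brightest kept probe. The number of replicates, 3 on 2 slides, limits the precision. Levels per genotype were scaled by Aquantile between arrays. Replicate values were tested against 0 with limma's moderated fit (3 replicates, 4.2 degrees of freedom, two-sided), with Benjamini-Hochberg adjustment over 21081 probes and a threshold of 0.05. Nothing beyond the labels' word biological says that replicates came from separate animals, so p-values measure the spread between these samples. The fit was checked on simulated data with 3 replicates, where it missed many changes. When 50 probes were altered 1.5-fold, it recovered 0 of them. Doubling the level led to 21 recovered probes, and even 8-fold changes led to only 39 of 50. False calls were few, 4 among 20881 unchanged probes. The simulated replicates were drawn independently with each probe's own SD, without the step between slides seen in the data. These rates therefore need not hold for the measured arrays. The largest mean among the members was 1.89-fold (Slc12a1), so the absence of calls does not show that the members were unchanged. Motifs were searched with Python 3.11.15 and plots drawn with matplotlib 3.10.9.

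The members and lists were chosen with earlier results of these data known. Named genes are the members, Trp53, up to 4 genes of each of the 5 pathway lists and up to 2 of each marker list by smallest unadjusted p, the unmeasured pathway genes by name, and the 2 genes most correlated with each member. Some genes picked by this rule stayed in the counts but are not reported here. Alternatives covered background correction, normalization, filters, replicates, slides, dyes and the variance model.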

Additional observations from a re-analysis of the deposited data

Results flagged for a closer look

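Some members had opposite signs on the slides: every array of slide 2 lay above 0 and every array of slide 1 below it. By replicate values, 24.4% of all tested probes were lower in replicate 1 and higher in replicates 2 and 3. The share of all probes that split this way by array was not counted. The 4 arrays of slide 1 are repeats of 1 replicate. The difference of slide 2 minus slide 1 was 2.05 (log2) for Slc12a1, 1.78 for Kcnj1 and 0.18 for Bsnd. These differences were not tested, since slide 1 holds 1 replicate. Dixon's test for a single array apart from the rest, run for each tested member over the 8 arrays and over the 4 arrays of replicate 1, passed its critical value in 0 of 14 tests. It was not run on groups of 3 replicates, and it cannot detect a step between 4 arrays and 4 others. The Bsnd difference is small and its wild-type signal was not well above background on 3 arrays, all on slide 2.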

How the results depend on the processing

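Of the 7 members' mean ratios under up to 16 alternatives, 96 values kept their direction and side of the threshold, 11 passed it where the reported fit did not, and 3 reversed. All 3 were Bsnd. With replicates left out in turn it ranged from −0.0189 without replicate 2 to 0.0843 without replicate 1, it was −0.0049 both with the slide as a block and with 1 value per slide, and over all alternatives its highest value was 0.26, in the authors' deposited values. Across the replicates left out in turn, the number of probes past the threshold ranged between 0 and 11719, that of member probes between 0 and 5, and that of pathway list genes between 0 and 19. With the slide as a fixed block these counts were 8531, 6 and 20. With all 8 arrays and the replicate as a random effect, 975 probes and 1 pathway list gene passed, and no member. Under the other alternatives the counts stayed at 0. The median member ratio ranged from 0.22 to 0.58. Median centring moved the median of all probes to 0.12, against 0.01 with loess. In the authors' deposited values all 7 members lay further from 0, up to 1.39 for Kcnj1. The stricter filter gave no value for Umod and Bsnd. Averaging all probes of a gene was not run for the members, which have 1 probe each. The fit has 3 replicates on 2 slides, and signal over background limits Bsnd, Umod and Slc12a3. The sizes of the Kcnj1 and Tmem52b ratios also depended on the offset. They were 1.08 and 0.28 with an offset of 10, against 0.72 and 0.17 in the reported fit.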
